A study of Mus musculus with 12 samples.

Results

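The genes described are 8 genes of ciliated epithelium, Foxj1, Dnali1, Tekt1, Tekt2, Rsph1, Spag6, Tppp3 and Hydin, read in the cochlea of ageing mice. They were taken as a fixed set by name, and every array probe whose symbol in the platform annotation is one of them was used. This found 10 of 45281 probes, for 7 of the 8 genes and of 19057 named genes in all. No probe carried the symbol Tekt2, and that gene was not analysed here. The arrays were Illumina mouse BeadChips, and the mice were of the inbred strain C57BL6j, known for early hearing loss, aged 4, 15 or 45 weeks. The labels give the tissue as cochlea with the vestibular organs taken away. Each age had 2 pools of cochleae, a and b, made up in groups of 5, and each pool was read on 2 arrays, which gave 12 arrays from 6 pools. All 6 pools came from unmutated, untreated mice as far as the labels say, so that age was the only labelled difference, and a pool hides the spread between its own animals.

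Motile cilia beat on the surface of the airways, the middle ear and Eustachian tube, the oviduct and the brain ventricles, where they move mucus or fluid. Each is built on an axoneme, a ring of doublet microtubules around a central pair, with dynein arms that pull, radial spokes that pass signals from the centre, and tektin filaments within the doublets. The forkhead factor Foxj1 and factors of the RFX family switch these genes on, the latter through X-box sites made of a pair of short core sites. The mouse organ of Corti carries kinocilia only while it develops, and the middle ear that lies against the cochlea is partly lined by ciliated and secretory mucosa. The 8 genes were therefore read as a view of that mucosa in the dissected tissue. In bulk RNA of this kind, fewer ciliated cells and less RNA per ciliated cell cannot be told apart.

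RefSeq promoter windows on GRCm38.p6, which run from 250 bases before to 50 bases after an annotated start, were on hand for 5 of the genes in 8 windows. Of these, 4 windows are shown because they belong to a pair of genes that followed each other over the pools (Tekt1 and Dnali1) and a pair that lay close to the array median (Hydin and Spag6). Capitals mark the RFX core site GTTGCC or, where it lies on the opposite strand, its reverse complement GGCAAC. All 4 are written 5′ to 3′ on the strand of the gene.
Tekt1, chr11:72361833-72362132, minus strand: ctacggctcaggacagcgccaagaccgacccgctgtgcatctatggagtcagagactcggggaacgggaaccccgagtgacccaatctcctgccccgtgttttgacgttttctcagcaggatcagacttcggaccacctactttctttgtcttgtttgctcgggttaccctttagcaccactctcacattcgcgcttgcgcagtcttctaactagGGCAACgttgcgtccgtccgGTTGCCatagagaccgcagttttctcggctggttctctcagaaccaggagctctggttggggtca
Dnali1, chr4:125065608-125065907, minus strand: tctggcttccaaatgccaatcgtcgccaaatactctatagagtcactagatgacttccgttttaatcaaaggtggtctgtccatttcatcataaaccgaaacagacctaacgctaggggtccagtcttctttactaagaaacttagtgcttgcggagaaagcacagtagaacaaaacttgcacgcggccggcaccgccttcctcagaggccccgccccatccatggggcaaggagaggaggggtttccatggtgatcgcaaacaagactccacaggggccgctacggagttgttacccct
Hydin, chr8:110266727-110267026, plus strand: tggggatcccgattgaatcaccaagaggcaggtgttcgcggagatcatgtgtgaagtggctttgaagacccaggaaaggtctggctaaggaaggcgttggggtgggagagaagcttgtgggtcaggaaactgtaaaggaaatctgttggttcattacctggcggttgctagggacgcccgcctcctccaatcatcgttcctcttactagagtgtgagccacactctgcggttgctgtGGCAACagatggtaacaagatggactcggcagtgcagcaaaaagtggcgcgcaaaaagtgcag
Spag6, chr2:18698772-18699071, plus strand: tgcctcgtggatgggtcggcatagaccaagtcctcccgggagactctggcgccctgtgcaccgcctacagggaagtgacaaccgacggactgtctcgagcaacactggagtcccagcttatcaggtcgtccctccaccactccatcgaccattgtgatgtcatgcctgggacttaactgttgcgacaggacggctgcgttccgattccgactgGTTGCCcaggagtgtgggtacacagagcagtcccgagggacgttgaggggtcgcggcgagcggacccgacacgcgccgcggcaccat

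The Tekt1 window held 2 core sites close to the start, with first bases at -35 on the opposite strand and at -15 on the gene strand. The second Tekt1 window in the table, at a start further downstream, held none. Hydin had 1, at -13 on the opposite strand, and Spag6 had 1, at -37 on the gene strand. Dnali1 had none in this form, although the looser form GTTNCC, of which GTTGCC is 1 case, matched at -8 and at 41. Among the 3 windows of Tekt2, 2 overlapping ones held 2 core sites each. Searched on both strands, GTTGCC occurred in 12.5% of all 32851 windows and in 47 of 122 windows (38.5%) of the other motile cilia genes described below. GTTNCC occurred in 45.3% and 76.2% of the same windows. The forkhead cores GTAAACA and TAAACA, present in 3.65% and 13.4% of all windows, matched in none of the 8. A whole X-box was searched as GTTNCC, a gap of at most 3 bases and GGNAAC. It was found in 0.804% of all windows and in 4.92% of those of the other motile cilia genes, and was likewise matched in none of the 8. Less strict forms of the X-box were not searched. These matches describe the letters in the windows and say nothing of binding.

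All levels below are the authors' normalized log2 values, with a median of 5.89 on each array and extremes of 5.10 and 15.00. A level can be set against the same probe in another pool but not against another probe. To test for age with limma, a mean over the 6 pools above 5.87 (the median of all probes) was required, and 22640 probes met it. Of the 10 probes of the set, 7 passed this filter, and they stand for 6 genes. The 3 that did not were the probe of Spag6 and the second probes of Dnali1 and Hydin. No call of detection over background was made, and differences of probes near the array median are understated.

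The tissue was checked by other markers before the age comparisons. Over all named genes, 12595 of 19057 passed the level filter on their brightest probe. Passing it does not by itself show that a tissue was present. Of 24 cochlear genes with a probe, 20 passed the filter, among them Otos (otospiralin), a gene of the spiral ligament, at 12.52 to 13.26. Those below it were Slc26a5, Pou4f3, Kcnq1 and Atp6v0a4, with means of 5.67, 5.81, 5.77 and 5.47. Of 30 genes of airway and middle ear secretion with a probe, 21 passed the filter, among them Bpifa1, an antimicrobial protein of upper airway mucus, at 13.28 to 13.81. The 9 below it included the club cell gene Scgb1a1 and the mucin Muc5ac, with means of 5.81 and 5.72. Ependyma and choroid plexus also bear motile cilia. Of 12 genes listed for them with a probe, 11 passed the filter. The list is not specific to these tissues, since it also holds Gfap, Vim, S100b, Sox2 and Aqp4. Gfap and Aqp4 are also in the list of brain genes read below. Ttr (transthyretin, made by choroid plexus) lay between 9.95 and 12.32, and Clic6, Kl and Otx2 had means of 9.21, 6.87 and 6.43. Folr1, at 5.93, was near the array median, and Tmem212, at 5.42, was below the filter. The part of these tissues in the levels of the ciliary genes was not tested. Of 9 sperm and testis genes with a probe, 3 passed the filter (Ldhc, Prm1 and Ddx4). The sex-linked genes split the pools, since Xist (ILMN_3022688) read 8.56 in the 4-week pool b and 7.60 in the 45-week pool b but between 5.85 and 5.95 in the remaining 4 pools. Eif2s3y (ILMN_1241001) went the other way, with 5.53 and 5.65 in those pools b and 9.54 to 9.81 in the rest. Its other probe, ILMN_1215914, lay between 5.70 and 6.10 in all pools. The 15-week pools were alike in Xist, whereas those of 4 and of 45 weeks were not. The labels give no sex, and its part in the age differences was not tested.

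**Figure D1:**
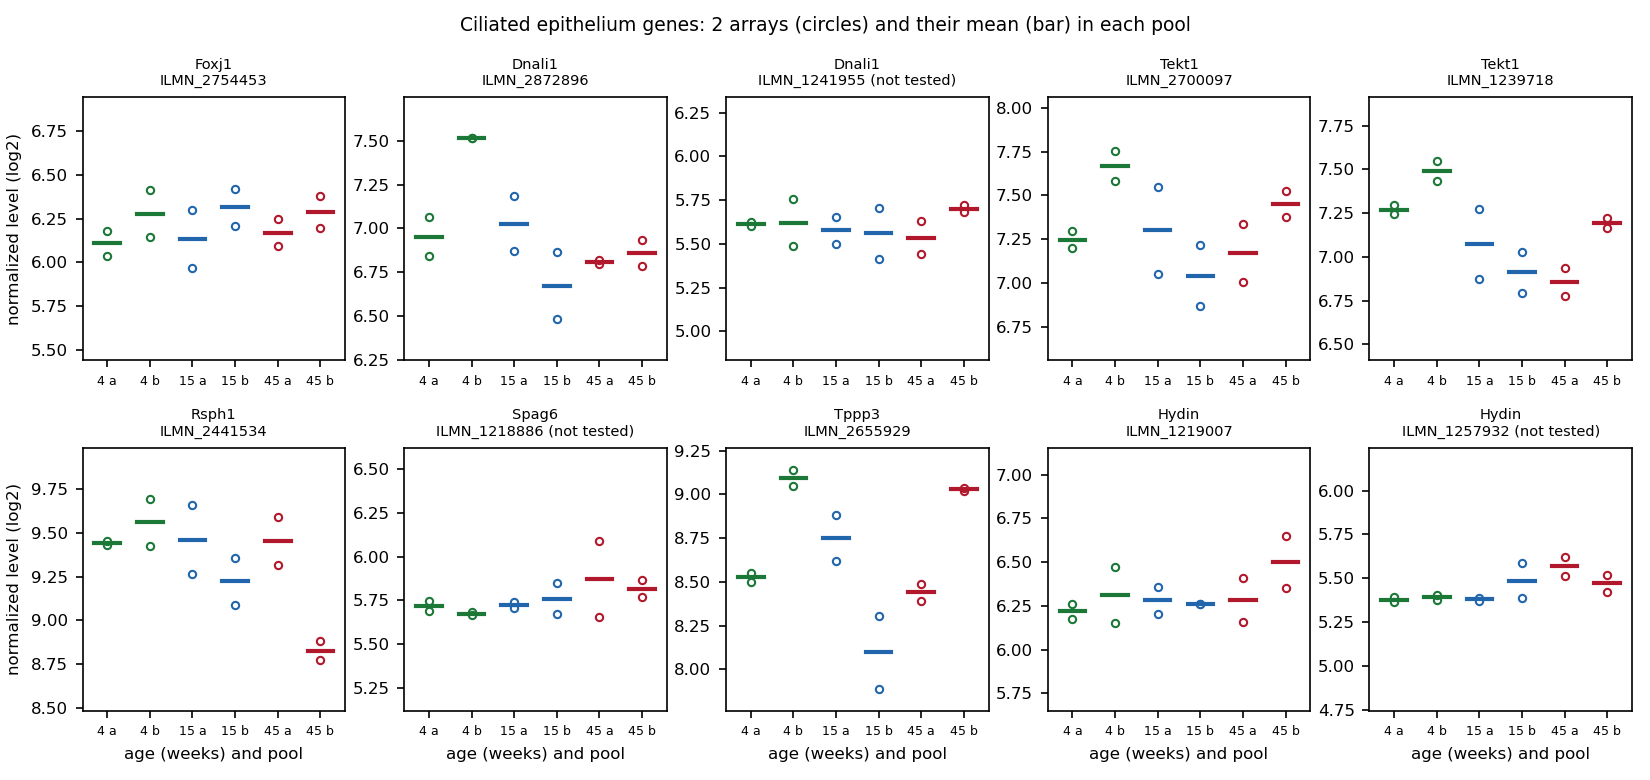
Normalized log2 level (vertical axis, with the same span of values in each panel) of the 10 probes of the ciliated epithelium genes in the 6 pools (horizontal axis, age in weeks and pool letter). Circles are the 2 arrays of a pool and bars their mean. Probes marked as not tested lay below the level filter. Tppp3 and Dnali1 show pools of the same age apart by more than their arrays at 4 weeks, and Foxj1 shows 6 pool means within 6.11 to 6.31.

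Foxj1, the transcription factor that starts the motile cilia programme, lay slightly above the array median and did not differ detectably with age. Its probe read 6.18 and 6.04 on the arrays of pool a and, on those of pool b, 6.14 and 6.41 (4 weeks). At 15 weeks the arrays read 5.97 and 6.30 in pool a and 6.21 and 6.42 in pool b. At 45 weeks they read 6.09 and 6.25 in pool a and 6.38 and 6.20 in pool b. All 3 ages overlapped, and the lowest and the highest of the 12 arrays were both of 15 weeks. The means were 6.19 ± 0.12 at 4 weeks, 6.22 ± 0.13 at 15 weeks and 6.23 ± 0.08 at 45 weeks (SD over pools, n = 2 each). From 4 to 45 weeks the log2 difference was 0.04 (SE 0.13, limma adjusted p = 0.931), and the arrays of a single pool were up to 0.33 apart.

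Some other known regulators of the programme can be set beside it. Rfx2, an RFX factor, lay between 8.09 and 8.27 in all pools, and Ccno, a cyclin-like gene needed for multiplying basal bodies, between 7.15 and 7.60. Rfx3 and the multiciliation regulator Mcidas had means of 5.77 and 5.72 and lay below the filter. Ccno had the largest SD over pools of the 4, with 7.60 in pool b of 4 weeks and 7.15 to 7.28 in the other pools. These 4 genes were picked as regulators from a list of motile cilia genes, after their values were seen.

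Dnali1, a light intermediate chain of the inner dynein arms, was highest in pool b at 4 weeks. That pool read 7.52 on both arrays and pool a read 7.07 and 6.84. At 15 weeks pool a read 6.87 and 7.18 and pool b 6.86 and 6.48. At 45 weeks pool a read 6.80 and 6.82 and pool b 6.78 and 6.94. The pools of 4 and 15 weeks overlapped, because pool a of 15 weeks (7.03) lay above pool a of 4 weeks (6.95), whereas both 45-week pools (6.81 and 6.86) lay below both 4-week pools. The log2 difference was -0.39 (SE 0.21) from 4 to 15 weeks, with a limma adjusted p of 1.00. It was -0.40 (SE 0.21) from 4 to 45 weeks, with a limma adjusted p of 0.448. Without pool b of 4 weeks these differences were closer to 0, at -0.105 and -0.12. The second Dnali1 probe, ILMN_1241955, had a mean of 5.60 and lay below the filter.

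Tekt1, which encodes a tektin of the doublet microtubules, was measured by 2 probes that followed each other over the 6 pools (r = 0.87, a description). At 4 weeks ILMN_1239718 read 7.30 and 7.24 in pool a and 7.43 and 7.55 in pool b, then 6.87, 7.27, 7.03 and 6.79 over the 4 arrays of 15 weeks. At 45 weeks it read 6.94 and 6.77 in pool a and 7.16 and 7.22 in pool b. Both 4-week pools (7.27 and 7.49) lay above the 4 older pools, which ran from 6.86 to 7.19. From 4 to 15 weeks the difference was -0.39 (SE 0.16), which had an unadjusted limma p of 0.046 and an adjusted p of 1.00. From 4 to 45 weeks it was -0.36 (SE 0.16, limma adjusted p = 0.384). ILMN_2700097 gave pool means of 7.25 and 7.67 at 4 weeks, 7.30 and 7.04 at 15 weeks and 7.17 and 7.45 at 45 weeks. On this probe every pair of ages overlapped, and the difference from 4 to 45 weeks was -0.15 (SE 0.19), so that the probes of Tekt1 gave the same sign but not the same order of pools.

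Rsph1, a protein of the radial spoke head, was level except in pool b at 45 weeks. At 4 weeks it read 9.43 and 9.45 in pool a and 9.42 and 9.70 in pool b. At 15 weeks it read 9.26 and 9.66 in pool a and 9.36 and 9.09 in pool b. At 45 weeks pool a read 9.32 and 9.59 and pool b 8.77 and 8.88. Both arrays of that last pool were below the 10 other arrays, while pool a of the same age (9.46) lay between the 4-week pools (9.44 and 9.56). The difference from 4 to 45 weeks was -0.36 (SE 0.21, limma adjusted p = 0.495), and it was -0.05 without pool b of 45 weeks. Over the 6 pools Rsph1 had an r of 0.50 with Dnali1, 0.15 and 0.05 with the Tekt1 probes ILMN_1239718 and ILMN_2700097, -0.11 with Tppp3, -0.52 with Foxj1 and -0.81 with Hydin.

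Tppp3, a tubulin-binding protein used as a marker of ciliated airway cells, had the widest spread over pools in the set. At 4 weeks it read 8.50 and 8.55 in pool a and 9.05 and 9.14 in pool b. At 15 weeks it read 8.88 and 8.62 in pool a and 7.89 and 8.30 in pool b, and at 45 weeks 8.49 and 8.39 in pool a and 9.02 and 9.04 in pool b. Pool b was above pool a by 0.57 at 4 weeks and 0.59 at 45 weeks and below it by a signed difference of -0.65 at 15 weeks. Each of these was larger than any difference between ages, which were -0.39 (SE 0.30) from 4 to 15 weeks, 0.31 (SE 0.30) from 15 to 45 weeks and -0.08 (SE 0.30) from 4 to 45 weeks, with limma adjusted p of 1.00, 0.792 and 0.938. The pools b of 4 and 45 weeks, where Tppp3 was highest, were also the ones with high Xist. At 15 weeks both pools had low Xist and Tppp3 still differed between them as given above. The part of sex in these levels was not tested.

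Hydin, a large protein of the central pair whose loss causes hydrocephalus in mice, showed levels near the array median with little spread. ILMN_1219007 had pool means of 6.22 and 6.31 at 4 weeks, 6.28 and 6.26 at 15 weeks and 6.28 and 6.50 at 45 weeks. Both 45-week pools were above both 15-week pools, although pool a matched its 15-week counterpart to the decimals given, and the 2 arrays of a pool were up to 0.32 apart. The difference from 15 to 45 weeks was 0.12 (SE 0.13, limma adjusted p = 0.804). The second Hydin probe, ILMN_1257932, had a mean of 5.45 and was below the filter.

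Spag6, another protein of the central apparatus, lay below the filter on its only probe, with pool means of 5.72 and 5.67 at 4 weeks, 5.72 and 5.76 at 15 weeks and 5.87 and 5.82 at 45 weeks. RefSeq gives the name Spag6 also as a synonym of Spag6l, a related gene on another chromosome with 3 probes of its own, and Spag6l was added after its values were seen. Its brightest probe, ILMN_2855928, had pool means of 7.16 and 7.32 at 4 weeks, 7.02 and 6.74 at 15 weeks and 6.63 and 6.74 at 45 weeks. Both 4-week pools were above the 4 older ones. The log2 difference of Spag6l from 4 to 45 weeks was -0.56 (SE 0.14), with an unadjusted limma p of 0.006 and an adjusted p of 0.271. The other probe of Spag6l past the filter, ILMN_2855931, with a mean of 5.94, differed by 0.01 from 4 to 15 weeks and by -0.17 from 15 to 45 weeks.

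**Figure D2:**
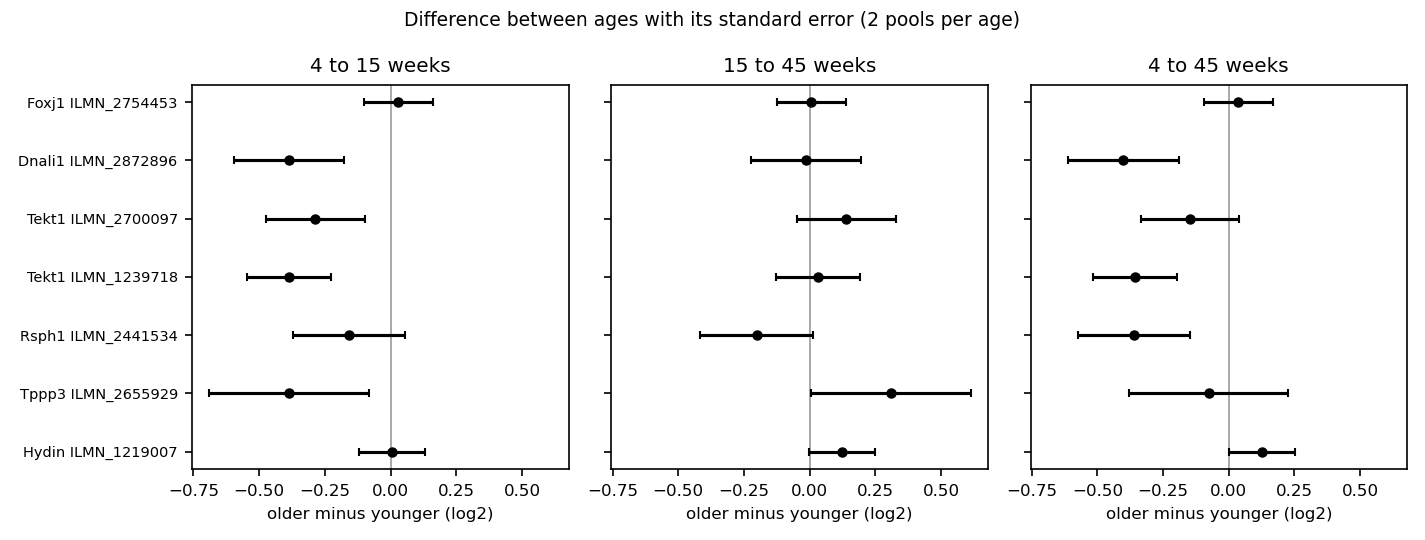
Log2 difference between ages, older minus younger (horizontal axis), with its moderated standard error (bars), for the 7 tested probes of the ciliated epithelium genes, from limma with 2 pools per age. From 4 to 15 weeks 5 of the 7 points lie below 0, from 15 to 45 weeks 2, and from 4 to 45 weeks 5.

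Over the set, none of the 7 tested probes was called in any comparison of ages. From 4 to 15 weeks, 5 of 7 differences were negative, and the pools of 1 probe (ILMN_1239718 of Tekt1) did not overlap, with the older lower. Limma called 0 of 22640 probes in that comparison (0%) at an adjusted p under 0.05, while 302 (1.33%) had an unadjusted p under 0.05, 1 of them in the set. Pools did not overlap with the older lower in 13.6% of all probes and with the older higher in 12.8%, the latter holding for 0 of the 7. For 6 of the 7 probes the largest gap between the 2 arrays of a pool exceeded the difference between ages.

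From 15 to 45 weeks, 5 of the 7 differences were positive, and Hydin was the only probe of the 7 whose pools did not overlap, with the older higher. Limma called 0 of 22640 probes (0%), and 1845 (8.15%) had an unadjusted p under 0.05, none of them in the set. Pools lay apart with the older higher in 19.8% of all probes and with the older lower in 19.9%. From 4 to 45 weeks, 5 of the 7 differences were negative, and the pools of Dnali1 and of ILMN_1239718 of Tekt1 lay apart with the older lower. This comparison uses the same 4-week pools as the first and the same 45-week pools as the second. Limma called 0 of 22640 probes (0%), and 3137 (13.9%) had an unadjusted p under 0.05, none of them in the set. Non-overlap was found in 22.5% of all probes with the older lower and in 22.5% with the older higher. The probes of the set whose pools lay apart thus numbered 1, 1 and 2 of 7 in the 3 comparisons, no larger a share than over all probes when both directions are counted.

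By gene, with the brightest probe of each, the median difference of the 6 genes was -0.22 from 4 to 15 weeks, 0.06 from 15 to 45 weeks and -0.11 from 4 to 45 weeks. The median over all 12595 genes tested was -0.01, -0.01 and -0.02. Single pools moved these medians. From 4 to 15 weeks the median was -0.36 without pool a of 4 weeks, -0.0879 without pool b of 4 weeks, -0.35 without pool a of 15 weeks and -0.0599 without pool b of 15 weeks. From 15 to 45 weeks it was 0.15 without either pool a, -0.0039 without pool b of 15 weeks and 0.0061 without pool b of 45 weeks. The median from 4 to 45 weeks was -0.36 without pool a and 0.0921 without pool b of 4 weeks, and 0.0442 without pool a and -0.17 without pool b of 45 weeks, so that its sign depended on which pools were used. The 2 arrays of a pool differed most for these genes at 15 weeks, where the median gap over the 7 probes was 0.33 in pool a and 0.27 in pool b against 0.19 and 0.17 over all tested probes.

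Pools of 1 age differed in a shared direction across the set. Pool b was above pool a for 6 of 6 genes at 4 weeks, for 1 of 6 at 15 weeks and for 5 of 6 at 45 weeks, against 51.0%, 54.1% and 47.4% of all genes. With each gene centred on its own mean, the mean of the 6 genes was -0.05 and 0.27 in pools a and b at 4 weeks, 0.03 and -0.20 at 15 weeks, and -0.08 and 0.03 at 45 weeks. Pool b of 4 weeks held the highest level of 4 of the 6 genes, and pool b of 15 weeks the lowest level of 3. Tekt1 (ILMN_2700097) and Tppp3 followed each other over the 6 pools with r = 0.95, and Dnali1 and the same Tekt1 probe with r = 0.88. These values describe 6 pools that share strain, platform and normalization, and no test was made of them.

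A wider list of motile cilia genes, of axonemal dyneins, spokes, central pair, nexin links and assembly factors, had 120 genes with a probe, of which 74 passed the filter. Over all genes 12595 of 19057 passed it. From 4 to 15 weeks 63 of the 74 (85.1%) were lower and 11 higher, against 53.3% of all genes lower, with a median of -0.13, and 0 had an adjusted or an unadjusted limma p under 0.05. With each gene centred, the list mean was -0.06 and 0.21 in pools a and b of 4 weeks and -0.02 and -0.10 in those of 15 weeks. Pool a of 4 weeks thus lay between the 15-week pools, and only pool b of 4 weeks lay above both. From 15 to 45 weeks 42 were higher and 32 lower with a median of 0.03. From 4 to 45 weeks 52 were lower and 22 higher with a median of -0.10. Limma's adjusted p called 0 of the 74 in each comparison, and at an unadjusted p under 0.05 there were 3 higher from 15 to 45 weeks (4.05%, against 4.31% of all genes). Between 4 and 45 weeks there were 3 higher (4.05%, against 6.84%) and 6 lower (8.11%, against 8.92%), so that these shares were no larger than over all genes. The list is no independent support for the set, since both were read in the same 6 pools.

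The 4 genes of that list with the largest SD over pools were Dynlrb2, Sntn, Morn2 and Fam183b. Dynlrb2, a light chain of ciliary dynein, had pool means of 8.97 and 9.99 at 4 weeks, 9.31 and 8.71 at 15 weeks and 8.84 and 9.51 at 45 weeks. Sntn (sentan), found at the tips of motile cilia, had 6.31 and 7.07, then 6.78 and 5.91, then 5.87 and 6.47. Fam183b had 8.75 and 9.65, then 9.12 and 8.48, then 8.62 and 9.24. All 3 had pool b above pool a at 4 and 45 weeks and below it at 15 weeks, the order also seen in Tppp3 and in ILMN_2700097 of Tekt1. Pool b was above pool a for 62 of the 74 genes at 4 weeks, 26 at 15 weeks and 49 at 45 weeks. Pool b of 4 weeks held the highest level of 48 of them (64.9%), against 15.6% of all genes.

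Morn2, the fourth, behaved otherwise, with 7.27 and 7.82 at 4 weeks, 7.43 and 7.60 at 15 weeks and 8.07 and 8.57 at 45 weeks. It is 1 of the 3 genes that were higher at an unadjusted p under 0.05 both from 15 to 45 and from 4 to 45 weeks, with a difference of 0.78 (SE 0.23, limma adjusted p = 0.277) in the latter. The other 2, named after their values were seen, were Saxo2, a microtubule-binding protein, at 0.61 and Gas8, a subunit of the nexin-dynein regulatory complex, at 0.31. Among the 6 that were lower from 4 to 45 weeks, Rsph4a, a radial spoke head protein like Rsph1 and also named after its values were seen, differed by -0.63 (SE 0.24, limma adjusted p = 0.332). Its pool means were 7.19 and 7.49 at 4 weeks, 7.44 and 6.78 at 15 weeks and 6.54 and 6.88 at 45 weeks, so that pool a of 15 weeks lay between the 4-week pools. Rsph9, a further spoke head protein picked in the same way, lay between 8.54 and 8.80 in all 6 pools. The 3 spoke head genes Rsph1, Rsph4a and Rsph9 thus differed in the order of their pools.

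**Figure D3:**
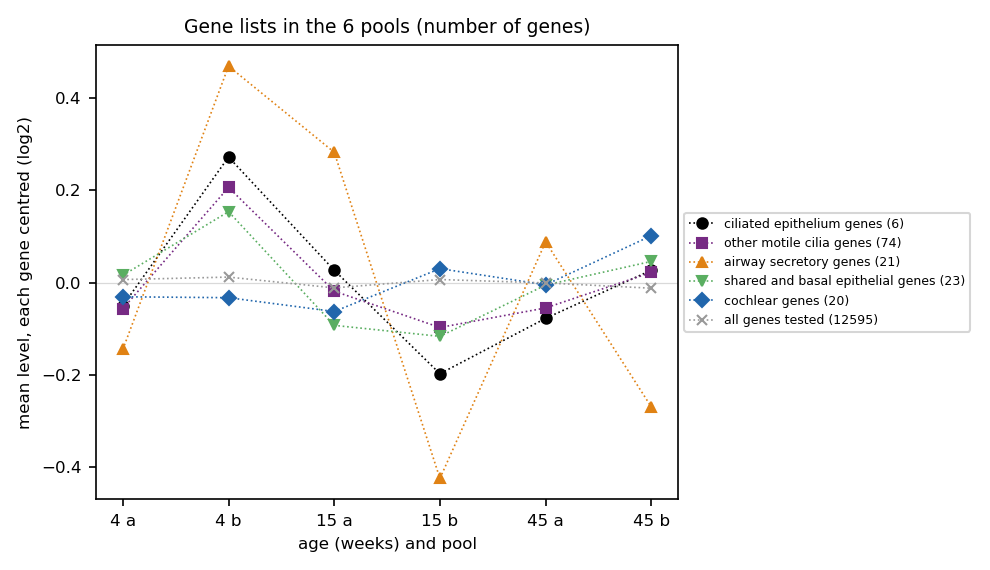
Mean level of each gene list in the 6 pools after centring each gene on its own mean (vertical axis, log2; horizontal axis, age in weeks and pool letter), with the number of genes in brackets. Dotted lines only join the pools. The ciliated epithelium genes and the other motile cilia genes are highest in pool b of 4 weeks, at 0.27 and 0.21, and lowest in pool b of 15 weeks, at -0.20 and -0.10, and airway secretory genes have the same highest and lowest pools.

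Other epithelial genes were read in the same pools, and their part in the levels of the ciliary genes was not tested. The 21 airway and middle ear secretory genes past the filter had a mean level of 9.24 and 9.86 in the pools of 4 weeks, 9.67 and 8.96 at 15 weeks and 9.47 and 9.12 at 45 weeks. Pool b of 4 weeks held the highest level of 12 of the 21 (57.1%). Their median difference was -0.22 from 4 to 15 weeks, -0.02 from 15 to 45 weeks and -0.30 from 4 to 45 weeks, and limma's adjusted p called 0 in each, against 5, 1 and 7 lower (23.8%, 4.76% and 33.3%) and 0 higher at an unadjusted p under 0.05. Over all genes 0.905%, 4.81% and 8.92% were lower at that threshold. Named after their values were seen, the secretory genes past it were Sftpd, Ltf, Cyp2a5, Cbr2 and Wfdc2 from 4 to 15 weeks. From 4 to 45 weeks Sec14l3 and Adh7 joined them, and from 15 to 45 weeks only Ltf was past it. The 4 of the 21 with the largest SD were Bpifb1, Tff2, Gp2 and Reg3g, none of them among these genes. Bpifb1, a secreted protein of the airway lining, had pool means of 7.50 and 11.65 at 4 weeks, 13.93 and 7.21 at 15 weeks and 13.31 and 7.27 at 45 weeks, and Tff2, a trefoil peptide of mucus, had 8.05 and 9.55, then 10.36 and 8.22, then 11.34 and 8.57. At 45 weeks both were higher in pool a, where Tppp3 was lower, but the list was mixed, since pool b was above pool a for 17 of its 21 genes at 4 weeks, 5 at 15 weeks and 9 at 45 weeks. Reg3g, an antimicrobial lectin, had 7.24 and 9.57 at 4 weeks and 6.77 to 7.61 in the 4 older pools.

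**Figure D4:**
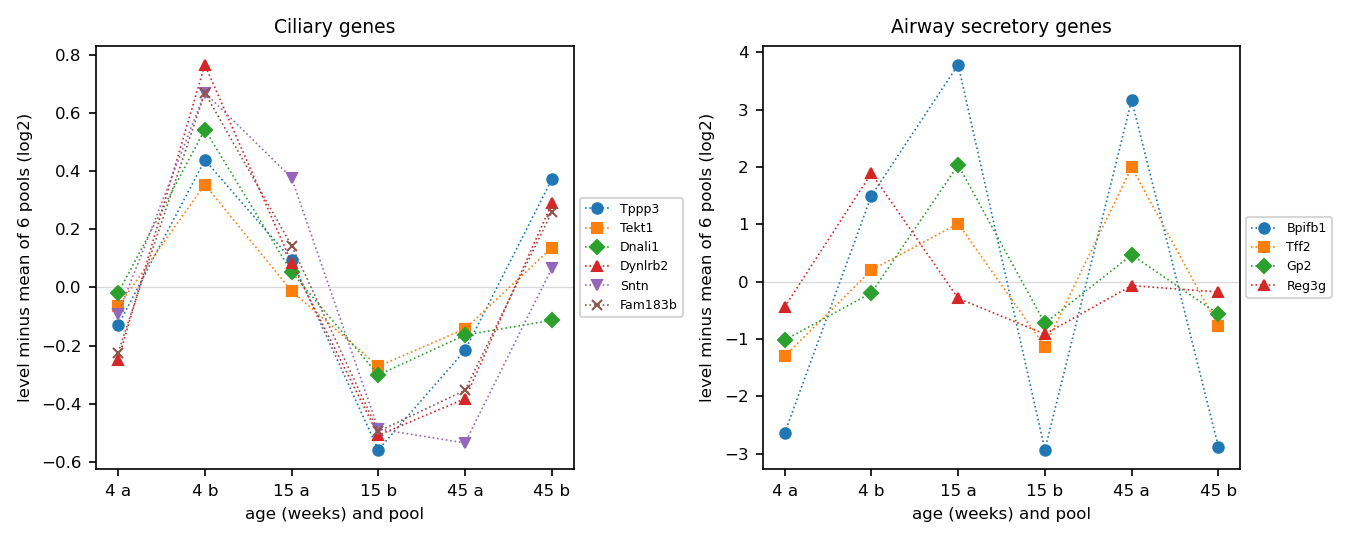
Level minus the mean of the 6 pools (vertical axes, log2, with different spans) by age in weeks and pool letter (horizontal axes) for ciliary genes (left; Tekt1 is ILMN_2700097) and airway secretory genes (right). Dotted lines only join the pools. Tppp3, Tekt1, Dynlrb2, Sntn and Fam183b lie higher in pool b than in pool a at 4 and 45 weeks, and Bpifb1 and Tff2 lie higher in pool a than in pool b at 15 and 45 weeks.

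Shared and basal epithelial genes, with 23 of 29 past the filter, had medians of -0.14, 0.07 and -0.09 for the 3 comparisons in the same order. Krt17 and Krt14, keratins of basal cells, had 4-week pool means of 7.60 and 7.59 (Krt17) and 8.15 and 8.33 (Krt14), 15-week ones of 6.34 and 6.77 (Krt17) and 7.29 and 7.52 (Krt14), and 45-week ones of 7.37 and 7.29 (Krt17) and 7.99 and 8.10 (Krt14). Both were thus lowest at 15 weeks. Genes of ependyma and choroid plexus (11 of 12 past the filter) had medians of 0.13, 0.06 and 0.15. Their part in the levels of the ciliary genes was not tested. Brain genes (17 of 22) had -0.05, 0.13 and 0.05, and cochlear genes (20 of 24) -0.00, 0.05 and -0.01. Salivary gland and pituitary genes (12 of 14) were higher in 12 of 12 cases from 15 to 45 weeks with a median of 1.37, led by Prl and Gh, the pituitary hormones prolactin and growth hormone. The 45-week pools were not alike, since pool a held the highest level of 9 of the 12. Gh was high in both (11.87 and 11.70). The salivary gene Dcpp3 read 8.94 in pool a and 5.47 in pool b, against 5.50 and 5.48 at 15 weeks. The 3 sperm and testis genes past the filter had medians of 0.11, 0.12 and 0.22. Limma's adjusted p called 0 genes of each of these lists. An unadjusted p under 0.05 was found from 4 to 15 weeks in 3 epithelial genes, all lower, and 2 cochlear genes, both higher, against 1.51% of all genes in either direction. From 15 to 45 weeks it was found in 3 epithelial, 1 ependymal, 4 brain, 1 cochlear and 4 salivary or pituitary genes, against 9.12% of all. The same count from 4 to 45 weeks was 2 epithelial, 3 ependymal, 5 brain, 3 cochlear, 5 salivary or pituitary and 1 testis gene, against 15.8% of all.

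The genes most like the set were ranked by Pearson r over the 6 pools with the mean of the 6 centred genes, among 4650 named genes outside the set with a range over pools of at least 0.5. The first 10 were Cbx7, Ccl7, Gtsf1l, Slc15a3, Dmkn, Lbp, Dynlrb2, Rgs1, Nme5 and Fam183b, with r from 0.96 to 0.99. Of these, Dynlrb2, Nme5 and Fam183b are in the list of motile cilia genes, and the first 50 hold 5 of that list. Ccl7 is a chemokine of monocytes, with pool means of 6.77 and 7.57 at 4 weeks, 6.81 and 6.34 at 15 weeks and 6.66 and 7.03 at 45 weeks, and 50 genes in all had r above 0.9. The median r was 0.82 for the 25 motile cilia genes among the 4650, 0.74 for 16 airway secretory genes, 0.51 for 9 shared epithelial genes, -0.07 for 10 cochlear genes and 0.01 for all. Without pool b of 4 weeks and pool b of 15 weeks, the pair farthest from the middle, the first 3 of these medians were 0.53, 0.07 and 0.31. Over the 4 pools left, the median was thus smallest for the secretory genes. For both the motile cilia and the shared epithelial genes it was smaller than before and still positive. An r over 4 pools is a weak description, and the pools left out were chosen by the values of the set itself.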

How the data were processed

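Transcript levels of 12 arrays (6 pools) were taken from the deposited value table, whose values are log2 values that the authors had normalized between arrays, as identical sorted columns show. For background correction and software, nothing is given in the sources used here. A second table, of 12 value and 12 detection columns whose names match no label, was not used, so that no detection call was made. Probes were named from the platform annotation (1 symbol for 34885 probes, several for 18, none for 10378), and 34807 matched RefSeq names of GRCm38.p6. The 2 arrays of a pool were averaged. With limma 3.58.1 (R 4.3.3), a single model of age was fitted to the 22640 probes above the median level of 5.87 (3 residual and 3.84 prior degrees of freedom), with Benjamini-Hochberg adjustment over all probes and a threshold of 0.05. Differences are older minus younger. The procedure was tested on simulated data whose noise was independent between probes and pools. Such a test does not cover a shift shared by many genes of a pool. The labels call the pools biological replicates, and p-values measure the spread between pools only, with 2 pools per age limiting precision.

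The genes and lists were chosen with earlier results of these data known. Named were all probes of the set, up to 4 genes of each list with the largest SD over pools, markers that bear on the tissue, and the 10 genes most like the set. Any gene outside this rule was picked with its values in view, as the text says there. For a gene with several probes the brightest stood for it in lists. Alternatives were no filter or a 75th percentile filter, each technical array alone, the pool as a random block over all arrays, a replicate block, a fit to only the ages compared, eBayes with trend and robust settings, normexp correction, cyclic loess and each pool left out.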

Additional observations from a re-analysis of the deposited data

How the results depend on the processing

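No probe of the set reached an adjusted p under 0.05 in limma under any alternative, the lowest being 0.217 for Rsph1 from 4 to 45 weeks. Of 327 differences recomputed, 303 kept their sign and 24 turned. Many of the 303 could not turn. A change of filter, of error model or of block, or leaving out the age not compared, leaves the difference itself unchanged. Only single arrays, other scalings and leaving out a pool of a compared age could move it. Dnali1, both Tekt1 probes, Rsph1 and Tppp3 stayed negative from 4 to 15 weeks in every alternative, with values from -0.71 to -0.0387, and Dnali1, Rsph1 and ILMN_1239718 of Tekt1 did so from 4 to 45 weeks. With the first array of each pool alone, Foxj1 was -0.0742 from 4 to 15 weeks. With the second alone, Hydin was -0.0558 from 4 to 15 weeks, Foxj1 -0.14, Dnali1 0.0454 and ILMN_1239718 of Tekt1 -0.0369 from 15 to 45 weeks, and Foxj1 -0.0033 from 4 to 45 weeks.

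Leaving out single pools gave from 4 to 15 weeks a range of -0.061 to 0.12 for Foxj1 and -0.041 to 0.0527 for Hydin. From 15 to 45 weeks it gave -0.0841 to 0.0974 for Foxj1, -0.19 to 0.16 for Dnali1, -0.0001 to 0.28 for ILMN_2700097 and -0.14 to 0.20 for ILMN_1239718 of Tekt1, -0.52 to 0.11 for Rsph1 and -0.0174 to 0.64 for Tppp3. From 4 to 45 weeks it gave -0.0487 to 0.12 for Foxj1, -0.36 to 0.0628 for ILMN_2700097 of Tekt1 and -0.37 to 0.22 for Tppp3. Tppp3 turned positive there without pool b of 4 weeks or pool a of 45 weeks. The median of the 6 genes ran from -0.36 to -0.0599 from 4 to 15 weeks, -0.0039 to 0.15 from 15 to 45 weeks and -0.36 to 0.0921 from 4 to 45 weeks.

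Over all probes, the count called in a fit to all arrays, pools being a random block, was 2 from 4 to 15 weeks, 6 from 15 to 45 weeks and 183 from 4 to 45 weeks, against 0 in each main comparison. It was 1 from 15 to 45 weeks and 1 from 4 to 45 weeks on the second arrays alone, 2 and 2 with a trended robust eBayes, and 2 and 1 with normexp. Using only the ages compared gave 1 from 4 to 45 weeks. Leaving out single pools gave 0 to 0 from 4 to 15 weeks and 0 to 12 in both other comparisons. The 12 were called without pool b of 45 weeks. The causes were not tested. The replicate block gave 0 calls in each comparison, with 226, 1720 and 2839 probes at an unadjusted p under 0.05. The labels do not tie a letter to a shared origin, and deviations of pools with 1 letter correlated at -0.11 between 4 and 15 weeks, -0.39 between 15 and 45 weeks and 0.18 between 4 and 45 weeks, so that the letters were not taken as pairs. At 4 and 45 weeks the letter went with the Xist level. Signal near the array median limits what can be said of Foxj1, Hydin and Spag6.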
